A study of Homo sapiens with 17 samples.

Results

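The genes described here are the numbered zinc finger genes of human chromosome 19. They are the protein-coding genes of GENCODE release 29 (build GRCh38) that lie on chromosome 19 and carry a name made of ZNF and a number. The rule gave 249 genes of the 19969 protein-coding genes of that annotation, and it used no measured value. Pausing sites were assigned to a gene when they fell inside its span on its own strand. Of the 249 genes, 197 held at least 1 site in at least 1 table, 52 held none, and 108 held a site in all 4 tables.

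The measurements come from HEK293 cells, an established line of human embryonic kidney origin. Time-variant precision run-on sequencing lets engaged RNA polymerases of permeabilised cells add labelled nucleotides for a chosen time and reads the ends of the RNAs. Run-on lasted 0.5, 2, 8 or 32 min, with sarkosyl in the buffer or without it, and each combination was made in 2 replicates, 16 libraries in all; 1 further sample, labelled Trp treatment, was not analysed here. Sarkosyl, a detergent, removes most chromatin proteins but leaves transcribing polymerases on the template. The groups share the cell line, the medium and the temperature of the run-on, and by their labels differ in the detergent. The samples of the 2 buffers carry numbers from separate ranges. Anything else that changed along with the buffer cannot be told apart from the detergent. The series also names KBM7, a line of leukaemic origin, in its design, while every sample used here is labelled HEK293. All values thus rest on 1 cell line as labelled, and p-values measure the spread between these replicates only, since nothing says how far their cultures were separate.

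Each of the 4 deposited tables belongs to 1 buffer and 1 replicate number and lists a pausing time for each site over the run-on times. A pausing time is the reciprocal of the fitted rate at that base, and a longer time means a lower rate. Its unit was not stated, and the tables hold no read numbers, so the depth behind a site is unknown. The tables listed 48566, 47713, 66089 and 41769 sites, and their median pausing times were 1.49, 1.34, 2.23 and 8.00, the sarkosyl tables first. Below, values for 4 tables stand in the order sarkosyl replicate 1, sarkosyl replicate 2, sarkosyl-free replicate 1, sarkosyl-free replicate 2. As a check of the line, NEFL, INA and LIN28B, taken as marks of HEK293 cells, held sites, while NEFM, PAX2 and LHX1 held none. Of 8 genes of blood cells, MYB and PTPRC held 6 sites, in the sarkosyl tables only; the part of this in the differences between buffers was not tested. The others, GATA1, SPI1, MPO, CD33, TAL1 and HBZ, held none.

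Zinc finger genes of this kind encode proteins that read DNA through an array of fingers, each a short fold held by a pair of cysteines and a pair of histidines around a zinc ion. In many of them a KRAB domain at the amino end recruits the corepressor TRIM28, which brings SETDB1 and HP1 proteins and deposits repressive chromatin, often on transposable elements and on the zinc finger genes themselves. The whole array is usually encoded by the last exon, and the genes stand in clusters made by duplication, so that fingers within a gene and between neighbours are close copies of each other.

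The sequences bore out that architecture. Of the 249 genes, 246 encoded at least 1 finger, with a median of 12 and a maximum of 36. A strict KRAB motif was found in 162. Its pattern was leucine, tyrosine or histidine, any residue, aspartate or glutamate, valine and methionine. A KRAB domain that departs from this pattern was not counted, so genes without a match, ZNF91 among them, need not lack a KRAB domain. The genes held 3095 finger units, of which 95.3% lay in the terminal exon, and in 230 genes every unit lay there. The terminal exon had a median length of 2847 bp, against 1147 bp in all other protein-coding genes. On the arms, 85 genes were on the short arm and 164 on the long arm.

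The sequences that carry the main pattern are finger units of ZNF227, a KRAB zinc finger gene on the long arm. A unit is 84 bases, counted from the first base of the first cysteine codon to the end of the linker, in the coding strand 5′ to 3′. Capitals mark bases listed as a pausing site in at least 1 table. The 5 units below are shown because the capital C of gtcC falls each time on base 61, the first base of the codon of the second histidine. They lie at chr19:44235658-44235741, chr19:44235994-44236077, chr19:44236246-44236329, chr19:44236330-44236413 and chr19:44236666-44236749 (GRCh38, plus strand).
unit 5: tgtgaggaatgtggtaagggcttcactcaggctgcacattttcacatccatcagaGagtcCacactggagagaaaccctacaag
unit 9: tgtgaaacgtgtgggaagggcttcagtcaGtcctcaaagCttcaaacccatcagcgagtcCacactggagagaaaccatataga
unit 12: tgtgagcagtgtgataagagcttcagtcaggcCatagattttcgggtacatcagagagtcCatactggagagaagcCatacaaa
unit 13: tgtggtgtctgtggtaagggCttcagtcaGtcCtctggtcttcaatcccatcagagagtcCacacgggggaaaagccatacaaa
unit 17: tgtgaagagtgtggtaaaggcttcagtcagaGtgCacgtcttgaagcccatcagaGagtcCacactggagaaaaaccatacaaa

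Beyond ZNF227, the same bases of the unit recurred in other genes. The windows below hold 30 bases around sites at base 21 and base 33 of a unit, the last bases of codons 7 and 11. Capitals mark the 4 bases that end at the listed site. They are shown because the sites fall on the same base of the unit in different genes, and 7 of the 8 end in GTCC or GGCC. ZNF180 and ZNF607 are on the minus strand.
ZNF180, base 21, chr19:44476633-44476662: tgcagtcaatgtgggaaGTCCttcagacag
ZNF567, base 21, chr19:36719823-36719852: tgtaatgactgtgggaaGTCCttccgccag
ZNF607, base 21, chr19:37698751-37698780: tgtaaagaatgtgggaaGTCCtttcgttgt
ZNF224, base 21, chr19:44106944-44106973: tgtgaggaatgcgggaaGGCCttcattcac
ZNF226, base 33, chr19:44177375-44177404: ggtaagtacttcagtcaGGCCtcaagtctt
ZNF234, base 33, chr19:44157820-44157849: gggaagcacttcagtcaGGCCtcaagtctc
ZNF222, base 33, chr19:44032629-44032658: gggaagagcttcaaatgGTCCtcatatctt
ZNF793, base 33, chr19:37537691-37537720: ggaaaatccttcagccaGAAGtcatgcctc

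Sites in the finger units gathered at these 3 bases. Summed over the tables, 279 sites were listed inside units of the terminal exon. They are 210 distinct positions in 66 genes. Base 61 held 19 distinct sites in 7 genes, base 33 held 20 in 13 genes and base 21 held 20 in 13 genes. Together the 3 bases held 20 of 45 sites, 20 of 55, 36 of 120 and 17 of 59, that is 44.4%, 36.4%, 30.0% and 28.8% of the unit sites of a table. They make up 3.57% of the bases of a unit, a share that also counts A and T, where few sites were listed. Base 61 was C or G in 99.7% of the units, base 33 in 57.0% and base 21 in 68.0%. The share of the 3 bases among C and G bases alone was not computed. All 4 tables stood far above 3.57%, those with sarkosyl at the upper end. The 3 bases were picked after the counts were seen, so the share describes these sites and was not tested.

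Base 61 was the site of ZNF227 and its neighbours. ZNF227 gave 8 of its 19 distinct sites. The others came from ZNF224, ZNF226, ZNF234, ZNF235 and ZNF45, which lie between positions 43913872 and 44288414 of the same long-arm cluster, and from ZNF784 outside it. Base 33 was spread over ZNF146, ZNF155, ZNF222, ZNF223, ZNF226, ZNF227, ZNF234, ZNF235, ZNF28, ZNF567, ZNF606, ZNF761 and ZNF793. Base 21 was used in another set, with ZNF180, ZNF224, ZNF527, ZNF529, ZNF544, ZNF546, ZNF567, ZNF569, ZNF607 and ZNF780B among its 13 genes. ZNF607 held 4 sites at base 21 and ZNF567 and ZNF780B held 3 each. Without ZNF227 the 3 bases still held 41.2%, 31.7%, 25% and 22.9% of the unit sites. In zinc finger genes on other chromosomes they held 14 of 112 distinct sites (12.5%), against 59 of 210 (28.1%) on chromosome 19. The 3 bases were picked for their counts on chromosome 19, which raises the chromosome 19 share by selection. The difference was not tested.

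**Figure D1:**
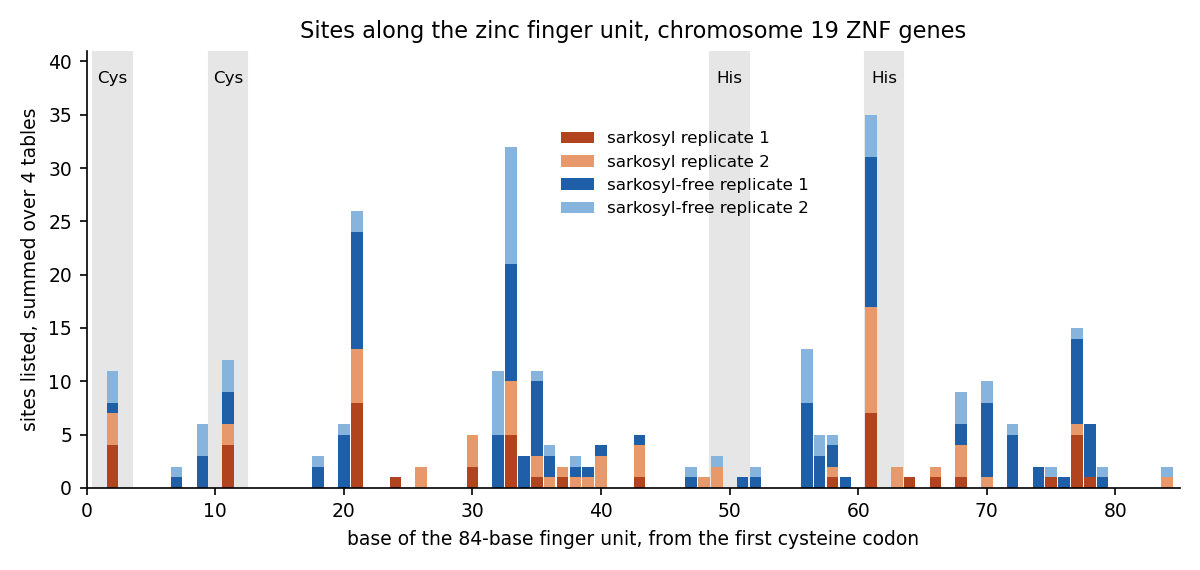
Sites listed at each base of the 84-base finger unit in the terminal exons of chromosome 19 zinc finger genes, summed over the 4 tables and coloured by table; grey bands mark the cysteine and histidine codons. The 3 tall bars stand at base 21, base 33 and base 61, with 26, 32 and 35 listings, and every table contributes to each.

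The units were also split into 6 bins of 14 bases, and the bins holding base 33 and base 61 stood above their share. The bin of bases 29 to 42 held 3.33, 14.2, 9.16 and 17.2 percentage points more of a table's unit sites than of the unit's bases. The bin of bases 57 to 70 held 7.78, 16.1, 7.50 and 3.67 points more. The bin holding base 21, bases 15 to 28, was above its share in sarkosyl replicate 1 only, at 3.33, -3.94, -1.67 and -9.89 points. The bin of bases 43 to 56 held fewer in every table, by -14.4, -5.76, -6.67 and -3.11 points. Apart from the bin of base 21, each of these directions was shared by 4 of 4 tables, and no p-value under 0.125 can be had from 4 tables. The bins were laid from the first cysteine codon, and bins shifted by 7 bases split the peaks differently.

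Many of the sites at these bases also shared the bases before them, those at base 61 and base 21 more than those at base 33. The motif searched, picked after the sites were seen, was GNCC, with the last C at the listed base, on the coding strand only, where N is any base; it includes GTCC and GGCC. Of the terminal-exon sites, 54 of 114, 48 of 108, 34 of 265 and 18 of 162 ended in it, that is 47.4%, 44.4%, 12.8% and 11.1%. In the terminal exons of the same genes 0.928% of all positions end in it, counting positions of any base. In all other protein-coding genes 39.8%, 33.2%, 10.4% and 4.93% of terminal-exon sites ended in GNCC, over a background of 1.31%. The motif was thus common at listed sites in both sets of genes, with a higher share in the zinc finger genes in 4 of 4 tables, a difference that was not tested. In both sets its share was higher in each sarkosyl table than in either sarkosyl-free table. The motif must end in C, as did 76.3%, 78.7%, 50.2% and 24.7% of the terminal-exon sites of the zinc finger genes. In other genes 83.6%, 81.6%, 52.0% and 19.9% did. The part of this mix of bases in the shares of the motif was not tested.

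Units that carried the motif at a given base were listed there far more often than units that did not. The 3 bases and the motif were both picked from these listed sites, so a higher share was in part fixed by that choice. Units without the motif also include those with A or T at the base, where few sites were listed. At base 61, 119 of 1395 units of the 108 genes with a terminal-exon site held GNCC, and 17 of those (14.3%) were listed in some table, against 2 of 1276 units without it (0.157%). At base 21 the motif stood in 257 units, of which 18 (7.0%) were listed, against 2 of 1138 (0.176%). At base 33 it stood in 72 units, of which 10 (13.9%) were listed. A further 10 of the 1323 units without it were listed at base 33, among them those of ZNF567 and ZNF793, where the site was the last base of gaag. The terminal exon of ZNF227 holds 17 copies of GTCC, and 10 of them were listed in some table (58.8%), against 1.02% of its other positions of any base. The shares in ZNF226, ZNF234 and ZNF224 were 4 of 9, 3 of 13 and 2 of 12 copies. A match says only that these letters stand at the site.

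ZNF227 shows the pattern in 1 exon. Its terminal exon of 2566 bp encodes 18 fingers and held 36 distinct sites. At chr19:44236306, base 61 of unit 12, the pausing times were 1.22, 1.72, 0.494 and 0.433. The next unit gave 1.40, 1.48, 0.717 and 0.177 at chr19:44236390, the last being the shortest time of any of these genes in sarkosyl-free replicate 2. Unit 5 gave 1.20, 1.99, 1.01 and 0.455 at chr19:44235718, and unit 17 gave 1.19, 1.47, 1.92 and 0.208 at chr19:44236726. These 4 sites of different fingers lay close to each other in the sarkosyl tables and were short in sarkosyl-free replicate 2, a table whose own median was 8.00. The longest time of sarkosyl replicate 1 in any of the genes, 50, also lay in this exon, at a G at chr19:44236023 inside unit 9.

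**Figure D2:**
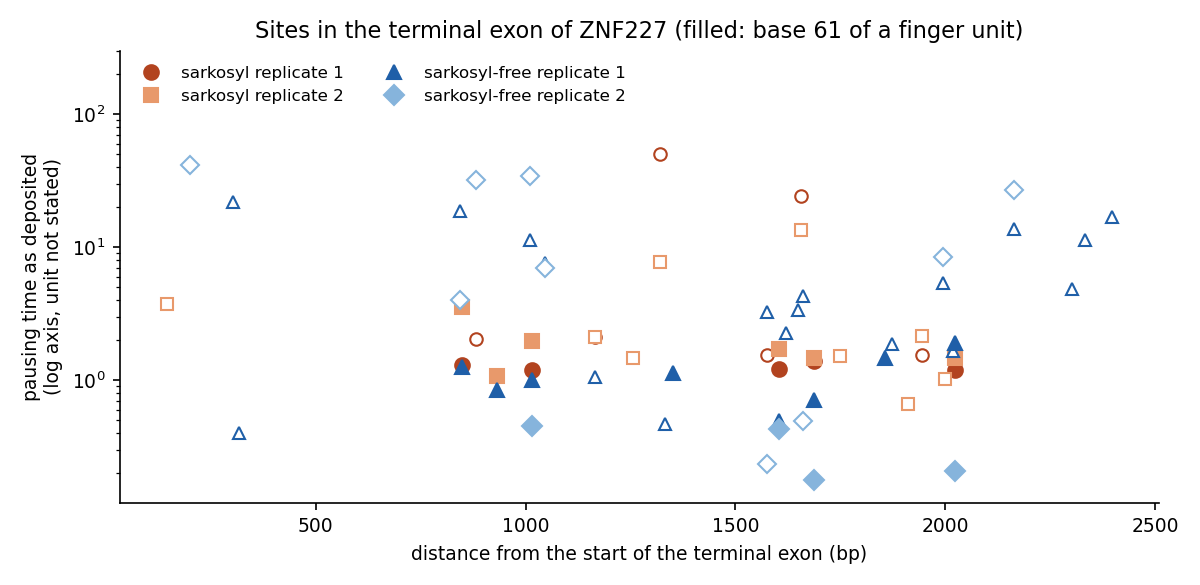
Pausing time on a log axis against distance from the start of the terminal exon of ZNF227, by table; filled symbols are sites at base 61 of a finger unit, open symbols all other sites of the exon. The filled symbols recur along the exon between 0.177 and 3.53, while the open ones reach 50.

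Over all of these genes, ZNF227 included, unit sites at the 3 bases had median pausing times of 1.40, 1.70, 1.55 and 0.984, and unit sites elsewhere 2.06, 1.64, 2.71 and 8.77. The sites at the 3 bases were thus shorter in 3 tables and slightly longer in sarkosyl replicate 2. Without ZNF227 the medians at the 3 bases were 1.51, 1.85, 1.66 and 4.37, and elsewhere 1.71, 1.62, 2.77 and 8.85, so that ZNF227 carried the low value of sarkosyl-free replicate 2. Most of them end in C. Among unit sites that end in C, the medians were 1.40, 1.70, 1.26 and 0.433 at the 3 bases and 1.62, 1.45, 1.33 and 0.626 elsewhere. The gap was thus narrower in 3 tables and wider in sarkosyl replicate 2, and sarkosyl-free replicate 2 had only 4 such sites elsewhere.

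Because the fingers are close copies, reads could map to more than 1 place, and how shared reads were assigned was not stated. As a measure of this, the 30 bases ending at a site were searched in the transcripts of all other annotated genes. They recurred in another gene for 30 of the 517 distinct terminal-exon sites (5.80%). At the 3 bases they recurred for 3 of 59 sites (5.08%), and 1 of the 59 was repeated within its own gene.

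Across the gene, the terminal exon held a larger share of the sites than in other protein-coding genes. It held 18.9%, 18.7%, 27.6% and 27.9% of the sites of the chromosome 19 zinc finger genes. In all other protein-coding genes it held 7.97%, 8.64%, 9.33% and 11.4%, so the zinc finger genes were higher by 10.9, 10.1, 18.3 and 16.5 percentage points, a mean of 13.95 ± 4.06 (SD, n = 4 tables). Other genes of chromosome 19 gave 8.22%, 8.34%, 7.87% and 9.53%. Zinc finger genes on other chromosomes gave 18.2%, 21.6%, 21.2% and 20.4%, above the chromosome 19 set in sarkosyl replicate 2 and below it in the other tables. Against them the mean difference was 2.95 points, less than the spread between tables.

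The terminal exon was also a larger part of these genes. It made up 9.94% to 10.3% of the span of the chromosome 19 zinc finger genes with sites, and 2.53% to 2.74% of the span of other genes. Density in the terminal exon was set against that in the rest of the span outside the promoter windows. Per base, sites were 4.14, 3.42, 4.51 and 4.38 times as dense there in the zinc finger genes, and 5.51, 4.94, 5.00 and 6.06 times in other genes. Other genes of chromosome 19 gave 3.08, 2.81, 2.57 and 3.29. Zinc finger genes on other chromosomes gave 4.58, 5.04, 4.54 and 4.77. By this ratio the chromosome 19 zinc finger genes stood below all other genes and below the zinc finger genes elsewhere in every table. They stood above the other genes of their chromosome in every table. Coding bases held 44.7%, 54.6%, 53.6% and 43.8% of their terminal-exon sites, and 41.2% of the bases of those exons are coding.

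**Figure D3:**
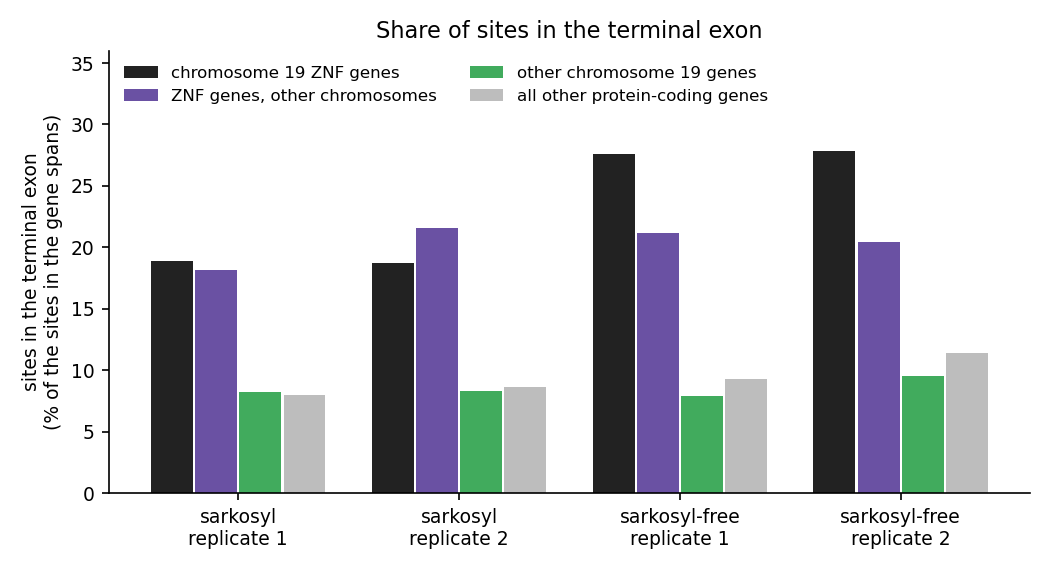
Percentage of the sites in the gene spans that lie in the terminal exon, by table, for 4 sets of genes. Both zinc finger sets stand between 18.2% and 27.9%, the other sets between 7.87% and 11.4%.

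Promoter-proximal sites, those within 300 bp downstream of any annotated start of the gene, made up 43.1%, 36.4%, 20.6% and 18.1% of the sites. In other genes the shares were 45.3%, 35.8%, 24.3% and 24.3%. Of these, 61.2%, 49.5%, 64.1% and 66.7% lay within 60 bp of the start. In the sarkosyl tables the median pausing time was higher in each further bin up to 200 bp. In sarkosyl replicate 1 its median was 0.915 at 0 to 30 bp, 1.138 at 31 to 60 bp, 2.22 at 61 to 100 bp and 3.65 over the next 100 bp, the last 2 from 55 and 30 sites, and it was 3.14 over the last 100 bp, from 16 sites. In sarkosyl replicate 2 the same bins gave 1.04, 1.18, 1.30, 2.12 and 2.43. The bins up to 200 bp of the sarkosyl-free tables had no such order, at 1.08, 2.11, 1.144 and 2.25 in replicate 1 and 4.83, 11.5, 8.33 and 4.10 in replicate 2.

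Of the 11 promoter-proximal sites that all 4 tables listed, the sequence could be read for 4, and 3 of these ended in GTCC. Their windows follow, 3 to 47 bp from a start, shown for those shared 4 bases in capitals. The fourth, in ZNF580, ended in GACG. No share of GTCC over all promoter-proximal sites is at hand to set beside this count. The windows of ZNF714 and ZNF91 are close copies of each other, so they are hardly separate cases. The genes are ZNF714 and ZNF91 of the short arm, where ZNF91 is known to silence SVA retrotransposons, and ZNF284 of the long arm; ZNF91 is on the minus strand.
ZNF714, chr19:21082233-21082262: cgccttcactgccctgtGTCCtctgctcgc
ZNF91, chr19:23395411-23395440: cgacttcactgctctgtGTCCtctgctcca
ZNF284, chr19:44072171-44072200: gtggtagtttggtgtcaGTCCtgtgtcttg

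Pausing times were longer in the terminal exon than near the promoter. In the zinc finger genes the median promoter-proximal time was 1.33, 1.28, 1.48 and 7.09, and the median terminal-exon time was 2.01, 1.65, 2.27 and 9.05. The log2 difference was 0.60, 0.37, 0.62 and 0.35, a mean of 0.48 ± 0.14 (SD, n = 4 tables), higher in 4 of 4 tables; 0.125 is the smallest p that 4 tables allow in an exact sign-flip test. All other protein-coding genes gave 0.54, 0.35, 0.81 and 0.66. The zinc finger genes were above them by 0.05 and 0.02 with sarkosyl and below them by -0.19 and -0.31 without it. The mean of these differences, -0.11 ± 0.17, was smaller than its spread. Sites in the rest of the span, called between, had medians of 1.72, 1.63, 2.39 and 9.09, close to those of the terminal exon.

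**Figure D4:**
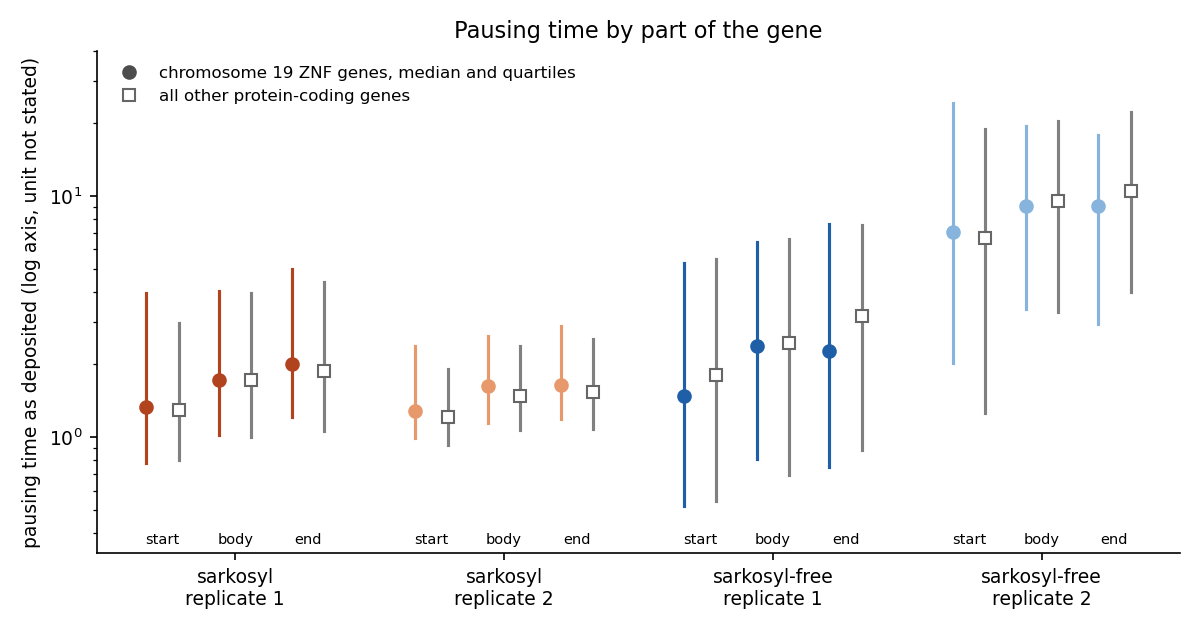
Median pausing time (symbols) and quartiles (lines) on a log axis for promoter-proximal sites (start), sites between (body) and terminal-exon sites (end) in each table, for chromosome 19 zinc finger genes (filled) and all other protein-coding genes (open). The start stands lowest in both sets in all 4 tables, and the quartiles of the classes overlap.

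The difference depended on which sites were taken. Among the sites whose fitted rate was more certain, those with the smaller ratio of upper to lower quartile, the mean was 0.01, and over sites listed in both tables of a buffer it was 0.86. Among sites that end in C it was 0.41, 0.50, 0.34 and -1.09, and among sites that end in G 0.77, 1.17, 1.30 and -0.04. With sarkosyl-free replicate 2 set aside, both kinds of site gave a longer time in the terminal exon in the other tables. That table had 15 promoter-proximal sites that end in C.

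The base at the site went with the pausing time. At sites within annotated exons, 75.1%, 72.3%, 51.9% and 23.6% ended in C and 21.1%, 24.4%, 47.0% and 76.0% in G. Sites in C had median times of 1.42, 1.40, 1.30 and 2.98 and sites in G 2.07, 1.55, 4.82 and 11.1. The log2 difference, C minus G, was -0.54, -0.15, -1.89 and -1.90, negative in 4 of 4 tables. Other protein-coding genes gave -0.13, -0.08, -0.68 and -1.64, with a like mix of bases in each table (74.1%, 72.6%, 50.7% and 23.5% C). The mix of C and G thus moved with the buffer and with the replicate, and its part in the differences between tables was not tested.

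Within single genes the order was less regular. Genes with both classes of site in a table numbered 35, 30, 53 and 28, and the terminal exon was the longer in 25, 16, 30 and 14 of them. Over all protein-coding genes with both classes, members included, it was the longer in 63.6%, 65.2%, 57.1% and 58.0%. In sarkosyl-free replicate 2 the genes divided evenly, 14 and 14.

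There were 9 genes with both classes in all 4 tables, ZNF146, ZNF180, ZNF224, ZNF226, ZNF227, ZNF529, ZNF544, ZNF546 and ZNF567. The terminal exon was the longer in every table in 3 of the 9. Over the 175 protein-coding genes so measured, these 9 included, it was so in 29 (16.6%), and the difference was not tested. ZNF544 had promoter-proximal medians of 0.876, 0.734, 0.428 and 3.802 and terminal-exon medians of 2.06, 4.39, 2.39 and 14.9. Its differences of 1.23, 2.58, 2.48 and 1.97 were the steadiest of the 9. ZNF180 had 1 promoter-proximal site in each table, at 0.634, 0.907, 0.340 and 0.494, and terminal-exon medians of 1.42, 1.16, 4.00 and 19.5. ZNF146, whose protein consists almost wholly of fingers and lacks a KRAB domain, went from 1.47, 1.40, 4.94 and 1.93 to 4.74, 2.91, 7.67 and 12.6.

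No gene passed the adjusted threshold. With limma on the differences of the 175 genes, 0 genes had a Benjamini-Hochberg adjusted p under 0.05 (0.0%), and 19 (10.9%) had an unadjusted p under 0.05, among them these 3. In limma the mean log2 difference was 2.59 in ZNF180 (adjusted p = 0.428), 2.07 in ZNF544 (adjusted p = 0.428) and 1.52 in ZNF146 (adjusted p = 0.438). ZNF226 and ZNF227 had negative means of -0.92 and -1.04, with the terminal exon longer in sarkosyl-free replicate 1 alone. ZNF224 gave 1.46, 0.43, -0.75 and 2.79.

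In 3 of the 9 genes the sign split by buffer. The share of such genes among all 175 so measured is not at hand to set beside this count. ZNF546 gave 2.37 and 3.19 in the sarkosyl tables against -4.18 and -0.04 in the others. ZNF567 gave 2.75 and 1.57 against -1.98 and -1.28, and ZNF529 gave 0.47 and 0.32 against -1.57 and -1.29. These genes had 1 to 6 promoter-proximal sites and 1 to 6 terminal-exon sites in a table. Whether the buffers differ in these genes was not tested.

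**Figure D5:**
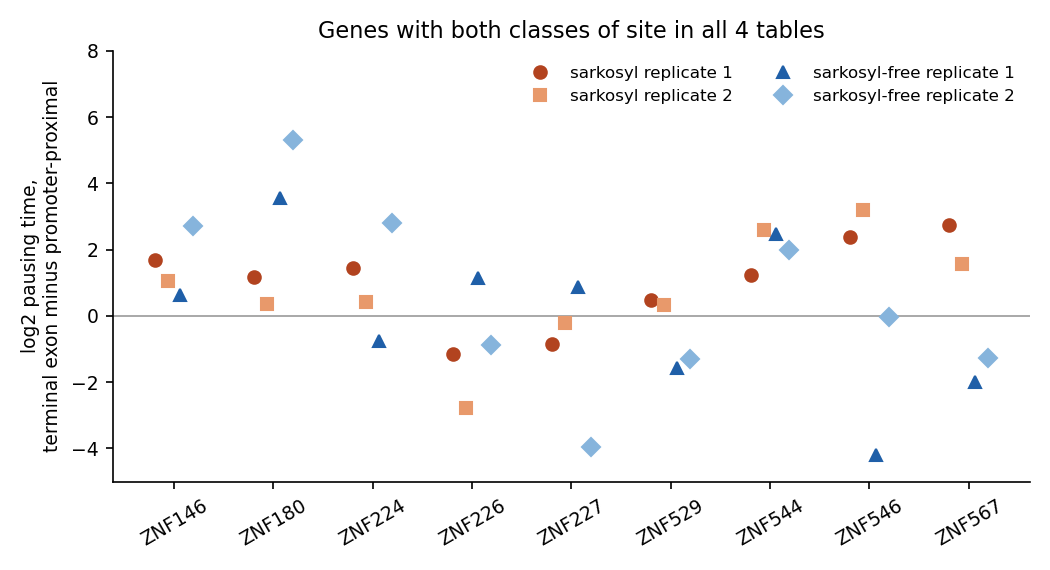
Log2 difference of median pausing time, terminal exon minus promoter-proximal, for the 9 genes with both classes of site in all 4 tables, 1 symbol per table. ZNF146, ZNF180 and ZNF544 lie above 0 in every table, and ZNF529, ZNF546 and ZNF567 lie above 0 with sarkosyl and below it without.

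The buffers were compared site by site where all 4 tables listed the site. Of 2183 distinct sites in the genes, 1765 were listed in 1 table, 325 in 2, 67 in 3 and 26 in all 4. The sarkosyl tables shared 186 sites (30.8% and 32.2% of each) and 181 sites were common to both sarkosyl-free tables (18.9% and 31.2%), while tables of different buffers shared 61 to 104. Of the 26 sites, 11 were promoter-proximal, 8 lay between and 7 in the terminal exon. After each table was centred on its median over the shared sites, the 2 buffers did not overlap at 15 of the 26, as at 57.3% of the 2967 sites so measured. In limma, 0 of the 2967 sites had an adjusted p under 0.05 (0.0%), 689 (23.2%) had an unadjusted p under 0.05, and 6 of these were among the 26.

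The smallest p was that of a promoter-proximal site of ZNF227, at chr19:44207601, 54 bp from a start. With sarkosyl it was held for 0.596 and 0.645, and without sarkosyl for 8.55 and 62.5. After centring, sarkosyl minus sarkosyl-free was -5.08 ± 1.07 on the log2 scale (SE; adjusted p = 0.155 in limma). The call changed with the setting: the adjusted p was 0.042 with quantile normalization and ran from 0.0079 without sarkosyl-free replicate 1 to 0.981 without sarkosyl replicate 1. The promoter-proximal site of ZNF284 shown above, at chr19:44072191, behaved alike at 0.691 and 0.976 against 5.10 and 13.9, a difference of -3.22, called with quantile normalization only among fits of all 4 tables (adjusted p = 0.047 in limma; 0.0084 to 0.981 with 1 table left out). That of ZNF714, at chr19:21082253, gave 0.883 and 0.769 against 4.27 and 3.02, a difference of -1.99. A further promoter-proximal site, in ZNF527 at chr19:37371136, gave 0.728 and 1.11 against 2.39 and 3.29. All 4 were shorter in each sarkosyl table than in either sarkosyl-free table. They were picked by their small p, and over the 11 promoter-proximal sites the difference was negative at 6 and positive at 5. The ZNF91 site shown above gave 2.41 and 1.01 against 0.341 and 2.27, where the buffers overlap.

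At all 7 terminal-exon sites the centred difference was positive. It was above 0 at 1600 (53.9%) of the 2967 sites so measured and at 17 of the 26. The 7 sites lay in only ZNF227, its neighbour ZNF226 and ZNF776, so they do not speak for the terminal exons of the other genes. Some differences were within their SE, as at chr19:44177205 in ZNF226 (0.20, SE 1.21). Whether the classes differ in this was not tested. The base-61 sites of ZNF227 at chr19:44236306 and chr19:44236390, whose times stand above, had differences of 1.78 and 2.15, longer with sarkosyl. A terminal-exon site of ZNF776 after the stop codon, at chr19:57755809, gave 4.02 and 3.39 against 0.755 and 1.05, sarkosyl first, a difference of 2.19. Sites of the remaining class, neither promoter-proximal nor in the terminal exon, went both ways. ZNF790 at chr19:36838464 gave 1.36 and 1.26 against 0.383 and 0.217, and a site in the read-through gene ZNF625-ZNF20 at chr19:12141310 gave 0.861 and 1.26 against 0.285 and 0.425. ZNF461 at chr19:36654089 gave 0.885 and 1.68 against 4.98 and 14.9. ZNF536 at chr19:30328659 and ZNF829 at chr19:36888331 were likewise shorter with sarkosyl, with differences of -1.56 and -1.84. The ZNF829 site lies past the terminal exon of the representative transcript, still inside the gene span. The adjusted p of these 12 sites in limma ran from 0.155 to 0.295, so none was called in that fit.

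The number of calls changed with the tables and the scaling. Without sarkosyl-free replicate 1, limma called 1597 of the 2967 sites (53.8%) and 16 of the 26; without sarkosyl-free replicate 2 it called 660 (22.2%) and 6 of the 26, and with quantile normalization 158 (5.33%) and 2 of the 26. In those fits the lone table of a buffer is assumed to vary like the others. In simulated data this fit recovered 0 of 200 changed sites at a log2 change of 2 or 4 and 131 at 6.

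Gene by gene, 42 of the zinc finger genes had at least 3 sites in each table. Limma on gene medians called 0 of the 1562 protein-coding genes tested (0.0%), with 141 (9.03%) under an unadjusted p of 0.05. The 4 zinc finger genes among them, chosen for naming after their values were seen, were ZNF584, ZNF225, ZNF546 and ZNF607. ZNF584 had median times of 2.06 and 1.61 against 0.655 and 1.22, sarkosyl first, a centred log2 difference of 2.63. ZNF225 gave 2.72 and 1.75 against 0.698 and 2.59, ZNF546 1.95 and 3.70 against 1.19 and 1.69, and ZNF607 3.99 and 4.50 against 1.76 and 7.35. All 4 had an adjusted p of 0.440 in limma. Without sarkosyl-free replicate 1, 48 genes (3.07%) were called, 1 of them a zinc finger gene.

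Sites were unevenly spread over the genes. The 8 genes with most sites held 24.3% of all listings: ZNF227 with 138 summed over the tables, ZNF146 with 113, ZNF226 with 82, ZNF544 with 78, ZNF529 with 74, ZNF567 with 71, ZNF507 with 61 and ZNF224 with 56. ZNF507 had no promoter-proximal site in any table, and its terminal-exon medians were 1.19, 1.29, 1.78 and 7.58. Single sites ranged widely. The longest of sarkosyl-free replicate 2, 200 at a G in the terminal exon of ZNF607 (chr19:37699129), rests on a rate rounded to 3 decimals. The longest of sarkosyl-free replicate 1, 55.6, was a G in the terminal exon of ZNF224 (chr19:44108649), and that of sarkosyl replicate 2, 38.5, lay 2 bp from a start of ZNF677 (chr19:53254686). The shortest times of the first 3 tables were promoter-proximal, at 0.386 in ZNF581 (chr19:55643694), 0.644 in ZNF564 (chr19:12551444) and 0.182 in ZNF480 (chr19:52297213).

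By arm, the terminal exon held 7.14%, 10.3%, 18.3% and 23.1% of the sites of short-arm genes and 20.8%, 20.04%, 29.1% and 28.6% of those of long-arm genes, lower on the short arm in every table. The short-arm values rest on 6, 8, 23 and 18 sites. Genes with the KRAB motif had 20.4%, 21.6%, 28.8% and 29.2% of their sites in the terminal exon and genes without it 15.4%, 12.6%, 24.7% and 24.7%. The split is by the strict pattern only, and genes without a match may still encode a KRAB domain. The log2 difference between terminal exon and promoter was 0.57, 0.45, 0.51 and 0.14 with the motif and 0.59, 0.07, 0.96 and 0.91 without it, in no fixed order.

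The partners through which KRAB zinc finger proteins repress were read from a list of 18 genes. Of these 17 held sites in some table, TRIM28, SETDB1, CBX1, CBX3 and CBX5 among them, and DAXX held none. Their terminal exons held 4.11%, 6.06%, 7.28% and 12.5% of their sites. TRIM28, the shared corepressor, had median pausing times of 1.11, 1.26, 5.22 and 1.29 over 11, 12, 6 and 5 sites, and SETDB1, the histone methyltransferase it recruits, 2.43, 3.42, 0.966 and 15.7 over 1, 3, 4 and 4 sites.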

How the data were processed

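The members and lists were chosen with earlier results of these data known. The authors deposited 4 tables, 1 per buffer and replicate number, each giving per site the mean, quartiles and median of a rate and a pausing time, per the file headers; the unit of time, the site caller and the model were not given in the sources used here. The submitters' processing notes name cutadapt 1.14, HISAT2 2.1.0, SAMtools, bedtools and build hg38. The deposited pausing time is the reciprocal of the median rate, which is rounded to 3 decimals. Read depth is unknown, so no interval that needs it was computed. The number of value columns not mapped to a group was 0.

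Sites were placed on GENCODE release 29: promoter-proximal within 300 bp downstream of any start of the gene, terminal exon that of 1 representative coding transcript, the rest between. The class between thus also holds sites past that terminal exon where the gene span runs further. Between 16.1% and 22.5% of a table's sites also lay in another gene on the same strand. Positions were taken to count from 1, because the base so read was C or G at nearly all exonic sites on both strands. Finger units were found by the pattern of 2 cysteines and 2 histidines in the translated transcript. Values are log2 pausing times. Class medians were compared as values per table. Genes and sites were compared with limma 3.58.1 (R 4.3.3; lmFit and eBayes) over all features, p-values being adjusted by Benjamini-Hochberg and called under 0.05; other steps ran in Python 3.11.15 with pandas 2.3.3, numpy 2.4.6, scipy 1.17.1 and matplotlib 3.10.9. Fits were tested on simulated data: the 175-gene fit recovered 10, 31 and 35 of 35 changed genes at log2 changes of 2, 4 and 6, and the gene-median fit 0, 145 and 172 of 200.

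Named were members with both classes in all 4 tables, the 8 with most sites, the 12 sites of all 4 tables with the smallest unadjusted p, and the longest and shortest site per table. Alternatives covered the promoter window, the starts and terminal exons used, means or gene medians, overlapping genes, certain or shared sites, comparison genes, centring, a replicate block, shifted bins and each table left out. Added after seeing the data were sites ending in C or G, the set without the 8 genes with most sites or without ZNF227, and the C and G bases of the units. One gene of the HEK293 marker list is not reported here.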

Additional observations from a re-analysis of the deposited data

Results flagged for a closer look

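In several results both sarkosyl tables lay on one side of 0 and both sarkosyl-free tables on the other; no model was fitted to these differences, and an exact permutation test of 2 tables against 2 cannot go below 0.33. The excess of the terminal-exon over the promoter-proximal log2 time in zinc finger genes, relative to other genes, differed by 0.29 between buffers (means 0.04 with sarkosyl and -0.25 without). The level of their terminal-exon sites against other genes differed by 0.45 (0.10 and -0.35), and terminal-exon minus between sites by 0.16 (0.12 and -0.04). Among single genes, the terminal minus promoter difference was larger with sarkosyl by 1.83 in ZNF529, 4.89 in ZNF546 and 3.79 in ZNF567. The share of genes split in this way among all genes so measured is not at hand.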

How the results depend on the processing

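Of 281 values under other settings, 20 changed direction among main results and 5 among single genes, the latter in ZNF546 and ZNF567. The terminal minus promoter difference of zinc finger genes, 0.48, became 0.0070 over sites of smaller quartile ratio, 0.86 over sites in both tables of a buffer, 0.041 over C sites, 0.80 over G sites and 0.30 with means. Relative to other genes, -0.11 became 0.16 over sites in both tables, 0.068 within genes and -0.63 over C sites. Its difference between buffers, -0.01, became 0.10 with a 150 bp window, 0.83 over C sites and 0.34 over G sites, and ran from -0.14 to 0.13 without single tables. The promoter level against other genes, -0.02, became 0.0075 against other chromosome 19 genes, 0.037 against other zinc finger genes, 0.15 over C sites and 0.20 over G sites, and ran from -0.055 to 0.072 without single tables. The terminal level, -0.12, became -0.48 over C sites and 0.18 over G sites. The promoter share, -2.86 points, became 6.06 against other zinc finger genes and 1.54 without the 8 genes with most sites; the terminal share fell to 2.95 points against other zinc finger genes. Shifting the finger bins by 7 bases turned bins 1 to 5 to 2.42, 6.83, -6.50, 5.44 and -0.34 points. Site calls between buffers, 0, became 158 with quantile normalization and 0 to 1597 without single tables; gene calls ran from 0 to 48. ZNF546 ran from -0.62 to 1.84 and ZNF567 from -0.56 to 1.01 without single tables, and ZNF567 became -0.058 against the typical gene. The causes were not tested.

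With the replicate number as a replicate block, 161 of 2967 sites and 0 genes were called, the promoter-proximal site of ZNF227 among them (adjusted p = 0.0019 in limma). The numbers do not pair the tables: replicate 1 minus replicate 2 with sarkosyl correlated with the same difference without it at 0.013 over sites and 0.064 over genes.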
